A study of Drosophila melanogaster with 2 samples.

Results

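The 8 Hox genes of Drosophila melanogaster (lab, pb, Dfd, Scr, Antp, Ubx, abd-A and Abd-B) were examined for binding of a tagged transcription factor, encoded by hng1, by chromatin immunoprecipitation followed by sequencing (ChIP-seq). Members were taken by gene symbol from the Ensembl annotation, and all 8 were found among 13945 protein-coding genes on the 6 chromosome arms that hold candidate regions. Each gene was extended by 10 kb on both sides to form its window. A summit, the highest point of a called region, was a promoter summit when it lay within 500 bp of any annotated transcription start site (TSS) of the gene, and a distal summit when it lay elsewhere in the window. The 8 windows did not overlap, covered 498 kb (1.55% of arm 3R) and held 25 of the 6091 final peaks of the series.

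The embryos were collected at 0 to 16 hours, with males and females pooled, from 1 transgenic line carrying CG9437, which the labels tie to hng1, fused at its C terminus to green fluorescent protein. There were 2 biological replicates of this 1 group, both carrying the transgene, so no comparison between conditions could be made. The assay label calls the samples transcription factor ChIP-seq, the antibody label names CG9437, and a free-text label calls them input controls. The lists are treated as ChIP peak lists. The deposited lists hold 30000 candidates per replicate, 30000 from pooled reads of both, and a final list labelled as thresholded on the irreproducible discovery rate. Its 6091 peaks are the strongest pooled candidates by signal, so a final peak is also one above a signal of 148. Each region carries the authors' signal value, which was used only within its own list because its scaling between lists is not stated. Read depth is not given in the sources used here. Whole embryos mix many cell types, and binding in few cells and weak binding in many cells cannot be told apart.

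Hox genes encode homeodomain transcription factors that give body segments their identity along the head-to-tail axis. In Drosophila they lie in 2 clusters on arm 3R. The Antennapedia complex holds lab, pb, Dfd and Scr, which act in the head and anterior thorax, and Antp, which acts in the thorax. The bithorax complex holds Ubx, abd-A and Abd-B, which act in the posterior thorax and abdomen. The genes are long, several have more than 1 promoter, and their expression is set by distant enhancers, boundary elements and the Polycomb and trithorax proteins. hng1 belongs to the MADF-BESS family of DNA-binding proteins.

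The sequences at the summits discussed below are printed from the reference genome (dm6, forward strand, 5′ to 3′), 50 bases to each side of the summit and cut where an annotated exon begins. They show the 2 Hox promoters in the final list, 1 weaker promoter candidate, the strongest sites of Abd-B, Antp and Ubx, an intronic Ubx site, a site found in 1 replicate, and a strong promoter of neighbouring genes. Capitals mark a match, on either strand, to any of 7 words. ACGTAA lay within 50 bases of 10.2% of all final summits and 5.26% of all pooled summits. TATCGATA and its shorter form CGATA are bound by Dref. GAGAG is bound by GAGA factor, and GCCAT is the core bound by Pho. TAATTA is a homeodomain core, and TATAAA resembles a TATA box. A match is a description of the letters and not evidence that a protein binds there.
Dfd promoter summit, chr3R:6791328-6791428: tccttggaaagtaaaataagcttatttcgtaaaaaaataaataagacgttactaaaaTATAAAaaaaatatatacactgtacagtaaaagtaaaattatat
Antp promoter summit, chr3R:6933102-6933202: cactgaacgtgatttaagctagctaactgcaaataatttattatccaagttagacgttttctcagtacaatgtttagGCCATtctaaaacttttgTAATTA
Abd-B promoter candidate outside the final list, chr3R:16934376-16934476: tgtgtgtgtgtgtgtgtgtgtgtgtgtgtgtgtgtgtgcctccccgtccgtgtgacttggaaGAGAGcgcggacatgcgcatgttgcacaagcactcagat
Abd-B intronic summit, chr3R:16958223-16958323: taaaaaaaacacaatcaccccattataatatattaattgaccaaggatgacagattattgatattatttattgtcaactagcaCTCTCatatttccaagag
Antp intronic summit, chr3R:6912593-6912693: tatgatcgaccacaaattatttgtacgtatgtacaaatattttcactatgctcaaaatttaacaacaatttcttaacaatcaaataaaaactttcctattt
Ubx summit past the 3′ end, chr3R:16656244-16656344: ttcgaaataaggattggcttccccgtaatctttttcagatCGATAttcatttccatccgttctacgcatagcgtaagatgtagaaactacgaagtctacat
Ubx intronic summit, chr3R:16704406-16704506: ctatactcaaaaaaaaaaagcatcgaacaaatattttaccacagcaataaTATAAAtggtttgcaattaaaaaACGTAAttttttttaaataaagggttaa
abd-A summit found in replicate 1, chr3R:16798825-16798925: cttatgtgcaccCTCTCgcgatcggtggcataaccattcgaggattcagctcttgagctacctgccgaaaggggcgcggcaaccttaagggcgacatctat
CG1307 and twr promoter summit near lab, chr3R:6657443-6657515: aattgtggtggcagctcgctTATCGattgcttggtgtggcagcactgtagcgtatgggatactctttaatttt

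Most Hox promoters held no final hng1 peak. Dfd and Antp were the 2 of 8 members with a final promoter summit. Over all protein-coding genes the share was 25.2% (3511 of 13945), and among the 1977 protein-coding genes whose windows span 30 kb or more, as those of all 8 members do, it was 35.9%. A count of 2 in 8 lies at this background. A promoter candidate of any strength was present in the pooled list for 5 members (pb, Dfd, Antp, abd-A and Abd-B), beside 50.6% of all protein-coding genes. Of genes with such a candidate, 49.8% had a final one over the whole annotation, against 2 of the 5 Hox genes. In each replicate the same 5 genes had a promoter candidate, and lab, Scr and Ubx had none in any list.

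Antp, which specifies thoracic segments, had the strongest Hox promoter summit. It lay at position 6933152 of 3R, -312 bp from the most downstream of 3 TSSs (negative values are upstream), inside an intron of the longer transcripts. Its pooled signal was 297 at rank 2491, its replicate 1 signal 185 at rank 2125 and its replicate 2 signal 112 at rank 3488. It stood among the strongest 6091 candidates in all lists. A second final summit at -537 bp from the same TSS fell just outside the promoter distance and had a pooled signal of 235 at rank 3471. The other 2 Antp TSSs had no pooled candidate nearer than 1747 bp.

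Dfd, which acts in the mandibular and maxillary head segments, had its single final summit at 6791378, -458 bp from its single TSS. The pooled signal was 205 at rank 4144. Replicate 1 had a candidate at -393 bp (signal 123, rank 3654) and another at -599 bp (signal 137, rank 3203). Replicate 2 had candidates at -319 bp (signal 41.2, rank 12869) and -546 bp (signal 77.7, rank 5851). The replicates thus placed their stronger summit farther from the TSS than the pooled list did, in both cases beyond 500 bp. With the strongest 6091 candidates of replicate 2 alone, Dfd had no promoter summit and Antp was the only member left with one.

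Weak promoter candidates made up the rest. Abd-B, which specifies the most posterior abdominal segments, had one at -184 bp from the most downstream of its 6 TSSs, with a pooled signal of 111 at rank 8468 and replicate ranks of 10746 and 7754. pb, which acts in the mouthparts, reached 79.9 at rank 12150, at 286 bp inside the transcribed region. abd-A, which acts in the anterior abdomen, reached 66.7 at rank 14982, at 123 bp from its nearest TSS. These 3 lie well below the lowest signal of the final list (148). Scr, which specifies the labial and first thoracic segments, had a pooled candidate at -508 bp from 1 of its 2 TSSs, but its signal of 39.6 ranked 28554 of 30000. Ubx, which sets the identity of the posterior thorax, had no pooled candidate nearer to its TSS than -3066 bp, and the nearest one at that position had a signal of 53.3. For lab, which acts in the head, the nearest pooled candidates were at -1606 bp from the downstream TSS and 3772 bp from the upstream TSS. At the downstream TSS the nearest were at 1366 bp in replicate 1 (signal 26.4) and -1331 bp in replicate 2 (signal 143, rank 2529). At the upstream TSS they were at 3648 and 2571 bp.

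**Figure D1:**
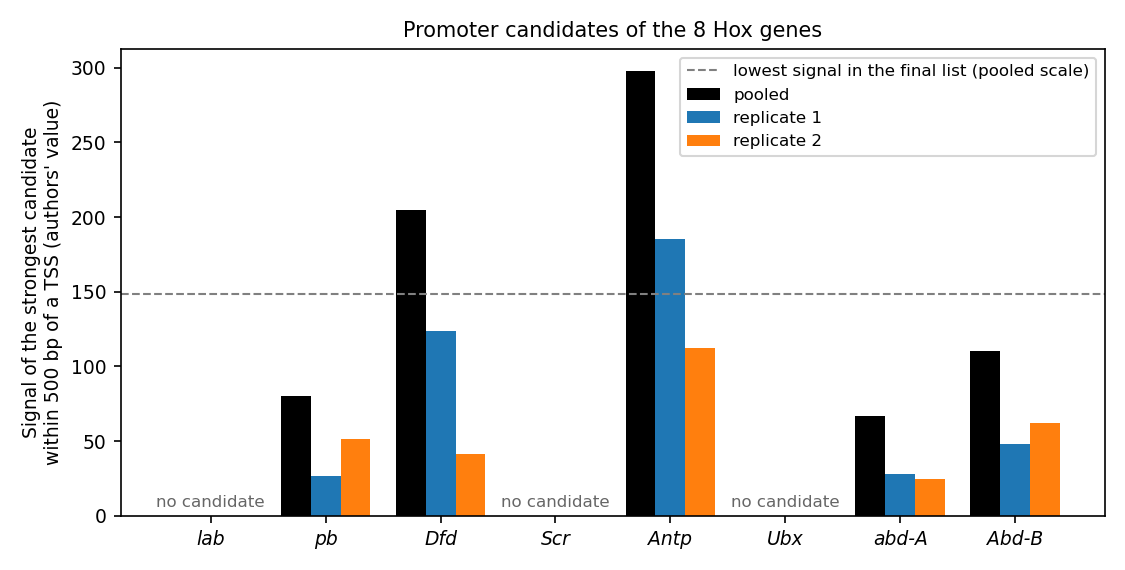
Signal of the strongest candidate within 500 bp of a TSS of each Hox gene, in the pooled list (black), replicate 1 (blue) and replicate 2 (orange). Bars can be compared within 1 list only, since the scaling between lists is not stated. The dashed line is the lowest pooled signal in the final list (148), which Antp (297) and Dfd (205) exceed, and lab, Scr and Ubx have no candidate.

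Final summits in the Hox windows were mainly distal, as were the candidates. Of 25, 23 lay away from Hox promoters, in the windows of 7 of the 8 members, Dfd being the exception. Distal sequence makes up most of each window by definition, and 96 of the 103 pooled candidates were distal. Of these 96, 23 were final, beside 2 of the 7 promoter candidates. The distal majority was thus already present among the candidates. The exact interval of the final share was 15.8% to 33.7% for distal and 3.67% to 71.0% for promoter candidates. With only 7 promoter candidates, these counts cannot decide whether final summits favour distal sites. Among protein-coding genes with windows of 30 kb or more, 74.1% had a final distal summit. By annotation, 15 of the 25 were intronic, 4 were intergenic and 6 were at an annotated start site, Hox or other. Over all final peaks, 3323 of 6091 (54.6%) were at a TSS, against the 6 of 25 (24%) here. The difference was not tested. Inside the genes themselves lay 14, downstream flanks held 8 and upstream flanks 3. The 25 summits formed 20 separate loci, because 5 pairs of summits, 200 to 231 bp apart, had overlapping regions.

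The strongest summits of all in these windows belonged to neighbouring genes. In the downstream flank of lab, the summit at 6657465 was within promoter distance of both CG1307 and twr. Its pooled signal was 1602 (rank 202), its replicate 1 signal 936 (rank 177) and its replicate 2 signal 676 (rank 275). A second summit 200 bp away, at 6657665, had a pooled signal of 915 at rank 473. At the far end of the Ubx window, the summit at 16647196 (247, rank 3234) lay at the promoters of CG10324 and CCT3, a subunit of the chaperonin that folds cytosolic proteins. A summit past the 3′ end of Scr, at 6816748 (243, rank 3313), lay at the TSS of lncRNA:CR42651, a noncoding gene. With these 4 set aside, 19 final distal summits were at no TSS, and they form the Hox-associated set described next. That set includes the Scr summit at 6816979 and the Antp summit at -537 bp. Their regions overlap those of summits at the TSSs of lncRNA:CR42651 and Antp.

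Abd-B held the strongest of these 19. The summit at 16958273 lay in an intron, 2008 bp from the nearest TSS. Its pooled signal was 846 at rank 529, its replicate 1 signal 482 at rank 483 and its replicate 2 signal 357 at rank 669. The called region was 370 bp wide and overlapped that of a weaker summit. The weaker summit at 16958476 (pooled signal 168, rank 5293) differed between replicates, with 42.5 at rank 12421 in replicate 1 and 140 at rank 2585 in replicate 2. The remaining summit, at 16969998, at -1424 bp from its nearest TSS, had a pooled signal of 159 at rank 5633, with ranks of 3950 and 9469.

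Antp had the largest number of final summits, 7 in a window of 123 kb, against 1 to 4 in each of the other windows. The strongest, at 6912643 in an intron 20197 bp downstream of the nearest TSS, had a pooled signal of 624 at rank 847 and replicate signals of 336 (rank 872) and 286 (rank 933). At 6903383, in the same direction and 29457 bp from that TSS, the pooled signal was 365 at rank 1916, with ranks of 1882 and 2148. These 2 sites kept nearly the same place in every list. The other 3 distal sites of Antp that have not been named ran from 153 to 200, at ranks 4256 to 5864. All 7 also lie inside CG46458, a gene annotated over the same part of the Antp locus.

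Ubx, whose gene spans 77804 bp, had 2 final summits at no TSS. One lay 329 bp past its 3′ end, at 16656294, with a pooled signal of 611 at rank 869 and replicate signals of 357 (rank 797) and 261 (rank 1067). It was strong in all 3 lists and lay at the opposite end of the gene from the promoter. The other, in an intron at 16704456, 29970 bp from the TSS, had a pooled signal of 188 at rank 4606, and ranked 3776 and 7209 in the replicates.

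In the abd-A window the final summits lay outside the gene. Upstream, those at -4783 bp (175, rank 5028) and -7976 bp (170, rank 5196) were in introns of the overlapping genes lncRNA:iab8 and MSAmiP. Downstream, 8339 bp past the 3′ end at 16798875, a summit had a pooled signal of 253 at rank 3130. Replicate 1 gave it 240 at rank 1479, whereas replicate 2 had no candidate within 100 bp and none overlapping it. This was the only one of the 25 that was missing from a replicate. Over the whole final list, 304 of 6091 summits (4.99%) had no replicate 2 candidate within 100 bp.

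The remaining Hox-associated summits were of modest height. In lab, an intronic summit at -1606 bp from the downstream TSS had a pooled signal of 242 at rank 3327 and ranks of 3957 and 2686. Another at 6231 bp reached 155 at rank 5799, and its region overlaps an INE-1 transposable element. In the intergenic flank past the 3′ end of Scr, summits at 6818756 and 6816979 had pooled signals of 266 (rank 2903) and 167 (rank 5320). The single final summit of pb was intronic, 18077 bp from the TSS, with 164 at rank 5428 and ranks of 8711 and 4607. Just outside the final list were the summit at the TSS of lncRNA:TS16 in the abd-A window (136, rank 6689), and an Antp summit at 6903585 (136, rank 6726).

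**Figure D2:**
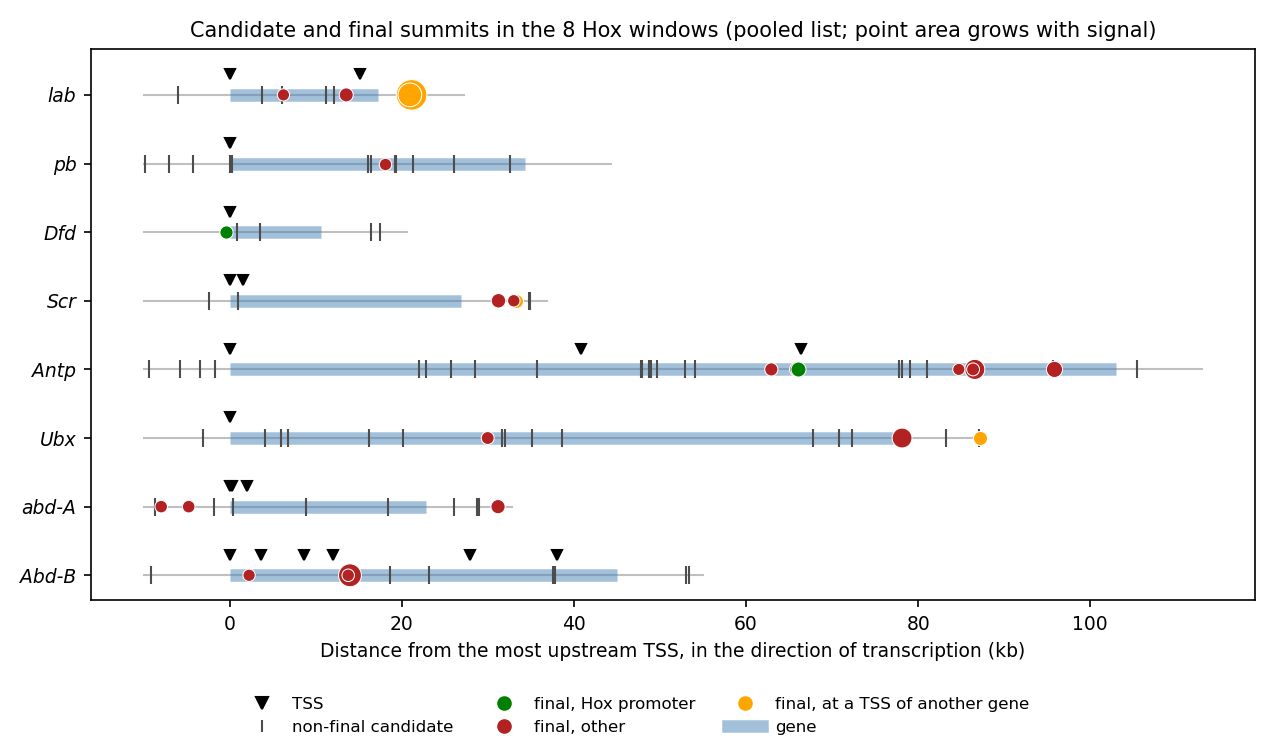
Position of candidate and final summits of the pooled list in the 8 Hox windows, in kb from the most upstream TSS in the direction of transcription. Blue bars are genes, triangles are TSSs, ticks are candidates outside the final list, and circles are final summits with an area that grows with signal (green at a Hox promoter, orange at a TSS of another gene, red elsewhere). The largest Antp and Ubx circles lie far from triangles, the 3 Abd-B circles lie at most 2008 bp from one, and the largest circles near lab mark the CG1307 and twr promoters.

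Replicates could be compared at each final summit. All 25 had a candidate within 100 bp in replicate 1 and 24 in replicate 2, so 96.0% (exact Clopper-Pearson 95% interval 79.6 to 99.9) were found in both, against 92.0% (91.3 to 92.7) of all final peaks. Reproducibility between these same replicates entered the final list, so high recovery is built into it. Among the 24, the rank was higher in replicate 1 for 15 and in replicate 2 for 9. Over all final peaks found in both, replicate 1 ranked higher in 56.1%. Of the 25, 21 lay within the strongest 6091 candidates of replicate 1 and 20 within those of replicate 2. They included 16 that did so in both replicates (64%), and each of the 25 did so in at least 1. The share in both over all final peaks was 71.0%. The 6 strongest summits kept close ranks in the 3 lists. The widest spreads were at the weaker Abd-B summit at 1805 bp from its nearest TSS (2585 to 12421), and at Abd-B (3950 to 9469) and pb (4607 to 8711) summits.

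**Figure D3:**
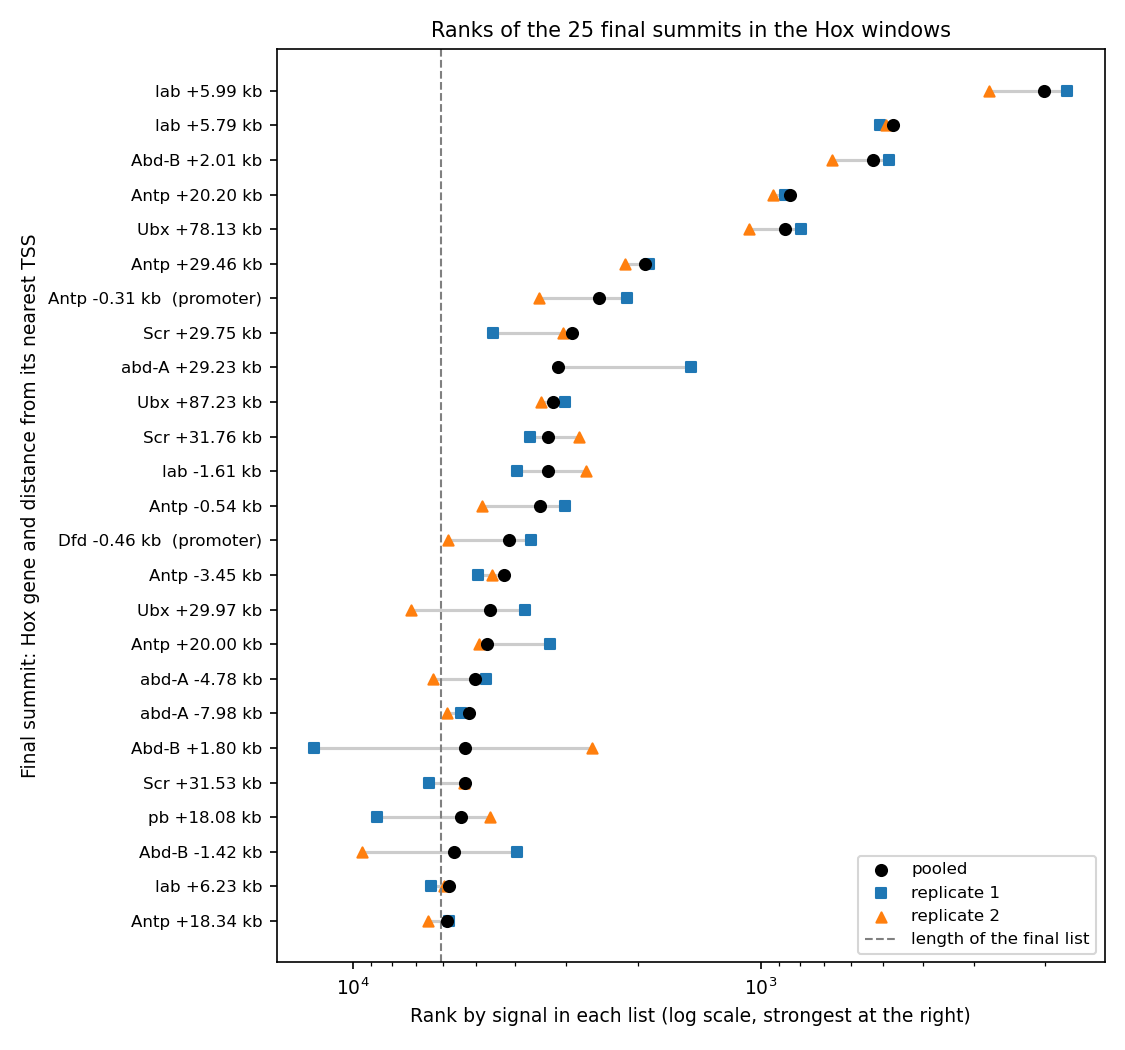
Rank by signal of the 25 final summits in the Hox windows in the pooled list (circles), replicate 1 (squares) and replicate 2 (triangles), on a log axis with the strongest at the right. Labels give the Hox gene and the distance from its nearest TSS, and the dashed line marks the length of the final list (6091). Replicate marks to the left of the line are summits outside the strongest 6091 candidates of that replicate, and the abd-A summit at 29230 bp has no replicate 2 mark.

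The 25 Hox summits ran from rank 202 (at CG1307 and twr) to rank 5864 of the final list, and those at no TSS began at rank 529. The median pooled signal of all 25 was 235, against 258 for all final peaks. Of the 25, 17 (68%) ranked beyond 3000, against 50.7% of all final peaks, and 5 (20%) ranked within the first 1000, against 16.4%. Among summits at no TSS, the median was 188 for the 19 in Hox windows and 236 for the 2768 in the whole final list. All 25 held the ceiling of the deposited −log10 q value (4.07), which therefore does not separate them. The 5 strongest were both at CG1307 and twr, and 1 each at Abd-B, Antp and Ubx.

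Density in the windows was close to that of the arm. The Hox windows held 5.02 final summits per 100 kb, against 4.41 on arm 3R and 4.55 over the 6 arms. For pooled candidates the values were 20.7, 21.7 and 22.4 per 100 kb. Final density ran from 1.84 per 100 kb at pb to 10.8 at lab, and the lab value includes the 2 summits of CG1307 and twr. Between them, in rising order, were Ubx (3.07), Dfd (3.27), Abd-B (4.61), Antp (5.69), Scr (6.40) and abd-A (7.0), each resting on 1 to 7 summits. The Ubx value includes the summit at the CCT3 and CG10324 promoters, and the Scr value includes that at the TSS of lncRNA:CR42651. The final list is 1 list for the pooled replicates, so these densities have no replicate spread and neighbours in the order are not separated. Among 1969 other protein-coding genes with windows of 30 kb or more, the median was 4.79 and the quartiles were 1.70 and 9.01, so 7 of the 8 members lay between the quartiles and lab above them.

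Of the 103 pooled candidates in the Hox windows, 25 were final (24.3%, exact Clopper-Pearson 95% interval 16.4 to 33.7), against 20.3% of all pooled candidates. At a TSS of any gene the Hox share was 6 of 20 (30%, 11.9 to 54.3), against 34.7% over all candidates at a TSS. At no TSS it was 19 of 83 (22.9%, 14.4 to 33.4), against 13.6% (13.1 to 14.0) of all candidates at no TSS. The last interval lies above the overall share. It covers counting error only, neighbouring summits are not independent, and the difference was not tested.

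**Figure D4:**
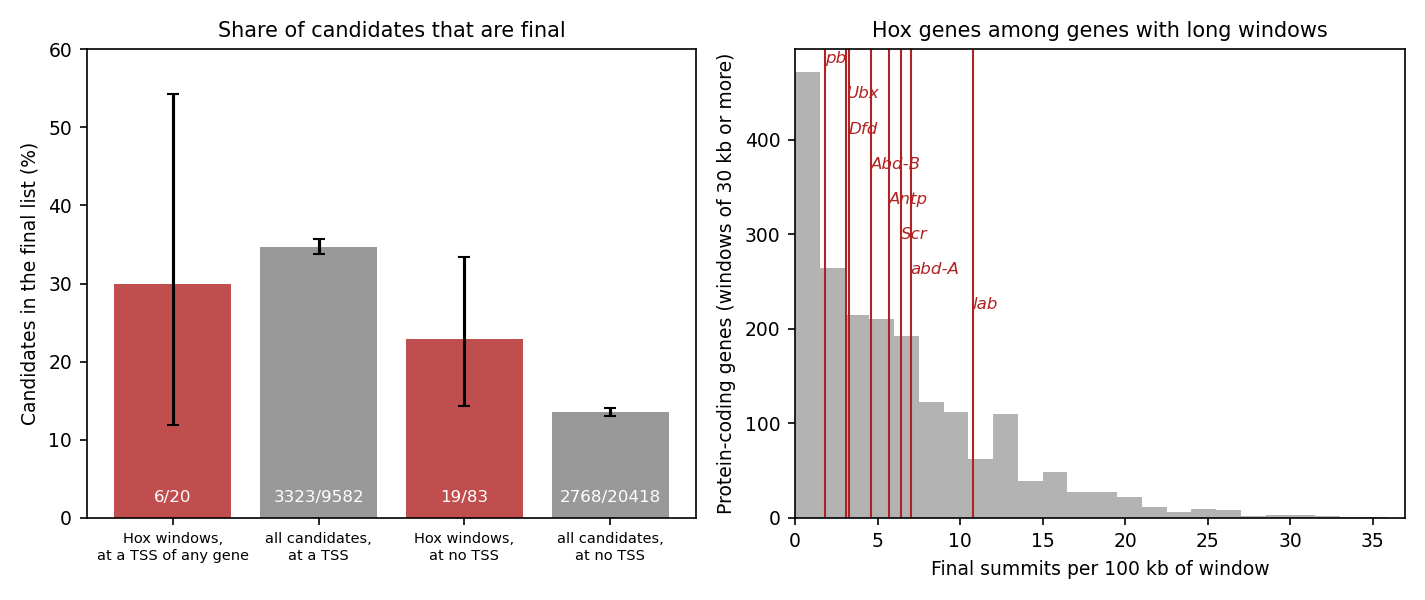
Left, share of pooled candidates that are in the final list, in the Hox windows (red) and over all candidates (grey), with exact Clopper-Pearson 95% intervals and counts in the bars. Right, final summits per 100 kb of window in 1969 other protein-coding genes with windows of 30 kb or more (grey histogram) and in the 8 Hox genes (red lines, from 1.84 at pb to 10.8 at lab). In the left panel the intervals at a TSS overlap, and those at no TSS (14.4 to 33.4 and 13.1 to 14.0) lie close together without overlapping. They cover counting error only, and neighbouring summits are not independent. The 19 Hox summits at no TSS include some whose regions overlap those of summits at a TSS. The differences were not tested.

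In the gene windows, the final share of candidates was close in the 2 clusters, with 16 of 64 (25%, exact Clopper-Pearson 95% interval 15.02 to 37.4) for lab to Antp and 9 of 39 (23.1%, 11.1 to 39.3) for Ubx to Abd-B. Values over the whole complexes were farther apart, and they add the stretches between windows and leave out the outer flanks. From the start of lab to the end of Antp, 338 kb held 69 pooled candidates, of which 19 were final (27.5%, exact interval 17.5 to 39.6). From Ubx to Abd-B, a span of 316 kb held 73 candidates, of which 9 were final (12.3%, 5.80 to 22.1). The intervals overlap, and the difference was not tested. Left out with the flanks are the CG1307, twr and CCT3 promoters and the summit past the Ubx 3′ end. Between the windows, the bithorax complex had 39 candidates and 2 final summits, 1 intergenic at 16794378 (233, rank 3506) and 1 at 16873168 (269, rank 2854) in an intron of lncRNA:iab8, the long noncoding transcript between abd-A and Abd-B. The Antennapedia complex had 12 candidates and 5 final summits between windows. The strongest was at the promoters of Ama, a cell adhesion gene, and lncRNA:CR45593 (564, rank 987).

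The other homeobox genes of the Antennapedia complex act earlier in the embryo. bcd, the anterior determinant, had a final promoter summit (185, rank 4697), with ranks of 3045 and 10526 in the replicates. ftz, a pair-rule gene, and zen, which specifies dorsal tissue, and its paralog zen2 had no pooled promoter candidate. Of the 44 annotated noncoding RNA features inside the complexes, lncRNA:CR45593 and lncRNA:CR42651 had a final summit at a TSS. The 44 include short features inside microRNA genes, so they are not all separate genes. The share over all noncoding features of the genome was not computed, so this count has no background beside it. mir-10, the microRNA gene between Dfd and Scr, had a candidate at a TSS (39.9, rank 28344) far below the final list. Those at lncRNA:CR43435 (70.7), lncRNA:CR44930 (67.9), lncRNA:CR42721 (62.8) and lncRNA:CR45559 (38.2) were also below it.

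Genes that regulate or work with Hox proteins were read from the same lists. Of the cofactors exd, hth, tsh and tio, 1 of 4 had a final promoter summit: exd, a homeodomain partner of Hox proteins (234, rank 3496). The strongest promoter candidate of hth, the other homeodomain cofactor, was outside the final list (107, rank 8806). Of the 10 trithorax group genes, which maintain active Hox expression, 5 did, led by kis (16949, rank 7) and fs(1)h (3578, rank 82). Of the 16 listed Polycomb group genes, which maintain Hox repression, 15 were matched in the annotation and 10 had one, led by Asx (2286, rank 127) and E(z) (924, rank 460). Of 7 known Hox targets, 3 did, with salm (391, rank 1717) and Dll (279, rank 2715) the strongest. These counts stand beside the 25.2% of all protein-coding genes given above.

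The DNA at the Hox final summits was AT-rich. In windows reaching 50 bases to each side of the summit, mean G+C was 31.4% at the 25 Hox final summits, 34.2% at all final summits and 38.7% at both the 103 Hox candidates and all pooled candidates. TATAAA was in 9 of the 25 (36.0%), against 22.2% of all final and 16.1% of all pooled windows. GCCAT was in 4 (16.0%, against 13.5% and 16.8%), CGATA in 4 (16.0%, against 15.9% and 13.5%), TAATTA in 3 (12%, against 10.4% and 7.83%) and GAGAG in 2 (8%, against 9.16% and 11.5%). ACGTAA was in 1 of 25, the intronic Ubx summit printed above, against 10.2% of all final and 5.26% of all pooled windows. TATCGATA was in none of the 25 and in 2.04% of all final windows, and this word contains CGATA. Of the Hox summits 19 were at no TSS. Over all final windows at no TSS, TATCGATA was in 0.40%, CGATA in 10.8% and TATAAA in 23.6%, and mean G+C was 33.0%. Of the strongest sites, the Antp intronic summit at 6912643 matched no word, and those at Abd-B (GAGAG), Ubx (CGATA) and CG1307 and twr (CGATA) matched 1 each. At the weak promoter candidates of pb and Abd-B the windows held GAGAG, and at that of abd-A they held no word. These are counts of letters over few windows and were not tested.

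Likeness to other genes was measured by the distance between the best ranks (log10) of promoter and distal summits in the pooled and both replicate lists, 6 values a gene. A gene without a candidate was given rank 30001. For lab, Scr and Ubx all promoter values are this placeholder, so their small distances rest on the distal ranks. For Ubx the nearest genes were CG14313 (0.01) and CG3345 (0.02), both likewise without a promoter candidate. For Scr they were CG13026 and CG13031 (0.01 each), for lab Grip75 and RluA-2 (0.04 each), and for Antp sti and tral (0.05 each), each pair having identical ranks. The lab distal ranks (202, 177 and 275) are those of the CG1307 and twr promoter summit. The Scr replicate distal ranks (3681 and 2781) are those at the TSS of lncRNA:CR42651. For pb the nearest genes were CG43322 and CG46491 (0.15 each), for Abd-B zda (0.16) and CG10904 (0.17), and for abd-A CG1103 and Skp2 (0.22 each). Dfd had the most distant nearest genes, CG15186 (0.32) and coro (0.53). Its best distal rank was 19866 in the pooled list, against 3203 and 5851 in the replicates. Those replicate ranks belong to summits at -599 and -546 bp, just past the 500 bp limit. The pooled list has its summit at -458 bp there, which counts as promoter, so the Dfd distances depend on that limit.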

How the data were processed

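ChIP-seq peak lists of 2 biological replicates in 1 group of whole embryos were used. Per the labels, chromatin was sonicated to fragments of 200 to 800 bp, and coordinates are dm6. Per the deposited file listings, candidate regions derive from each replicate's alignment, or both, and a common control alignment, and the final list derives from the 3 candidate lists. No source used here names the peak caller or its thresholds. The authors' signal value (column 7) was used to rank regions within a list, and the deposited −log10 q value only for its ceiling.

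Summits were placed on Ensembl release 115, and sequence was read from the RefSeq genome of the same assembly. TSSs of annotated transposable elements were not used. A replicate match is a candidate summit within 100 bp. Python 3.11.15, numpy 2.4.6, pandas 2.3.3 and scipy 1.17.1 were used, and figures were drawn with matplotlib 3.10.9. The assignment of summits to genes was tested on simulated data. Intervals are exact Clopper-Pearson 95% intervals over counts. Members and lists were chosen with earlier results of these data known. Named genes are all members, genes with a TSS at a final summit in a window, noncoding genes of the complexes with a candidate at a TSS (the leading ones are given), other homeobox genes of the Antennapedia complex, and the 2 strongest of each regulator list. No test between groups was possible, and no set test was made. Alternatives were other TSS distances, other extensions, the stronger part of the final list, each replicate alone and other match distances.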

Additional observations from a re-analysis of the deposited data

How the results depend on the processing

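No paired analysis was possible because there is 1 group. The promoter count depends on distance and threshold. With 250 bp instead of 500 bp, 0 of the 8 Hox genes had a final promoter summit, since both summits lie farther out. In the stronger part of the final list (fewer peaks by construction), 1 gene kept one and 7 distal summits were left. With 1 replicate left out, the strongest 6091 candidates of the other replicate stood in for the final list. The number of genes with a promoter summit among them was then 1 to 2, and of distal summits 20 to 22. Candidates numbered 87 to 116, and the share among the strongest was 20.7% to 24.1%. These are not final summits, and 3 in replicate 1 and 1 in replicate 2 had no final summit within 100 bp. With gene bodies only, 13 distal summits and 67 candidates were left, and the final share was 22.4%. Final summits found in both replicates made up 72.0% with a match distance of 50 bp and 96.0% with 200 bp or any overlap. Other extensions (18 to 30 distal summits), a TSS distance of 1000 bp (22) and, both chosen after the data were seen, leaving out summits at a TSS of another gene (19) or merging overlapping regions (19) moved these counts by less than 1.5 times. Depth is unknown, so what it limits cannot be given.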
